A study of Homo sapiens with 6 samples.

Results

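The 6 genes YARS1, HARS1, NARS1, YARS2, HARS2 and NARS2 encode aminoacyl-tRNA synthetases that charge tRNAs carrying queuosine, and they were examined among the 63086 genes of a HEK293T expression table. They were chosen by name and by Ensembl identifier: 3 are the cytosolic enzymes for tyrosine, histidine and asparagine (YARS1, HARS1 and NARS1) and 3 are their mitochondrial counterparts (YARS2, HARS2 and NARS2). The synthetases for aspartate were not analysed here. HEK293T is an established human embryonic kidney cell line that expresses the SV40 large T antigen. Cells given queuine (100Q) and cells depleted of it (0Q) gave 3 libraries each. The 100Q cells were derived from the 0Q cells by adding queuine, for which the sample characteristics give 100 nM and the treatment protocol gives 1 µM for 24 hours. Both groups grew in medium with 10% dialyzed fetal bovine serum, which removes small molecules such as queuine. The labels state triplicate growth without saying whether these were separate cultures, so p-values measure only the spread between these libraries, which may be technical.

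Queuosine is a modified guanosine at the wobble position of the anticodon in tRNAs for tyrosine, histidine, asparagine and aspartate. Mammalian cells cannot make its base, queuine, and take it up from diet, bacteria or serum, after which a tRNA-guanine transglycosylase exchanges it for the genomically encoded guanine in cytosolic and mitochondrial tRNAs. The anticodons concerned read a pair of codons each, ending in C or U. A synthetase attaches the amino acid to its tRNA before either codon can be read. Tyrosyl-tRNA synthetases are class I enzymes, and histidyl- and asparaginyl-tRNA synthetases are class II enzymes. All 6 genes are nuclear, and the mitochondrial enzymes are imported into the organelle to charge mitochondrially encoded tRNAs. Some cytosolic synthetase genes, NARS1 and YARS1 among them, are known targets of ATF4, the transcription factor of the amino acid response.

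The promoter regions are shown first, because they set the histidine pair apart from the others by position. HARS1 and HARS2 lie head to head on chromosome 5, HARS1 on the minus strand (140673035 to 140691537) and HARS2 on the plus strand (140691430 to 140699305; GENCODE release 44, hg38). Their annotated genes overlap by 108 bases, and the start sites of their canonical transcripts lie 85 bases apart. The HARS2 promoter window of RefSeq (GRCh38.p14, chr5:140691205-140691504, plus strand, 250 bases before to 50 after the start) holds both start sites. Capitals mark the 86 bases from the start site of HARS1, at 140691370, to that of HARS2, at 140691455.
HARS2 window: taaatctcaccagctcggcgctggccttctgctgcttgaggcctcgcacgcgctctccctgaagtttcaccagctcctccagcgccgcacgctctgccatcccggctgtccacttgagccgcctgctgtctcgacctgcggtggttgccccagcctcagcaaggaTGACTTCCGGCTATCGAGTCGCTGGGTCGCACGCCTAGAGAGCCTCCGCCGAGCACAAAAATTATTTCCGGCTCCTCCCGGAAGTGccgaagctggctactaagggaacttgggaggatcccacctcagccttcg
In the NARS1 window (GRCh38.p14, chr18:57621787-57622086, minus strand), capitals mark the only match to TGATGNAAN, the letters of the composite element bound by ATF4 with C/EBP proteins.
NARS1 window: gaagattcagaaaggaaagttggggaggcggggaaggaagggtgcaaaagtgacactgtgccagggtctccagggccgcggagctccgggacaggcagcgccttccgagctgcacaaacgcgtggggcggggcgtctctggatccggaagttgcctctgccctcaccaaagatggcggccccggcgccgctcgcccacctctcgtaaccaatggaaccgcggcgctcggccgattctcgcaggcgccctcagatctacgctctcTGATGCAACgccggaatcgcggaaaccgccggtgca
The match, TGATGCAAC, begins 15 bases into the transcript, counting the start site as base 1. Both strands were searched, N stands for any base, and the motif was chosen after the sequences had been seen. YARS2 had 1 match, TGATGGAAA, whose first base lies 197 bases before the start site, and the windows of HARS1, HARS2 and NARS2 had none. Of 35116 windows of this length, 3.61% held a match. Of the other cytosolic synthetases it was found in 5 of the 14 with a window, TARS1, IARS1, CARS1, MARS1 and AARS1, and of the other mitochondrial synthetases in 0 of 11. A match is a run of letters and does not show that a factor binds there. YARS1 had no entry in the promoter table.

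The other genes map as follows in GENCODE release 44, with all coordinates on hg38. YARS1 is on chromosome 1 (32775237 to 32818031, minus strand), NARS1 on chromosome 18 (57600656 to 57622213, minus), YARS2 on chromosome 12 (32727490 to 32755897, minus) and NARS2 on chromosome 11 (78435620 to 78575194, minus). On the same strand, the longest identical run of the canonical transcripts of a pair was 11 bases for tyrosine, 24 for histidine and 11 for asparagine. An identical run does not measure how alike the sequences are as a whole. Longer identical runs were found with neighbours, sought on both strands and in all annotated transcripts. No 50-base stretch of YARS1 or NARS1 occurred in transcripts of another gene on either strand. For HARS1 it was 9.0% of stretches, all shared with WDR55 at its end. For YARS2 it was 16.6%, almost all shared with the antisense noncoding ENSG00000286950, for HARS2 5.66%, shared with ZMAT2 and HARS1, and for NARS2 2.03%. The strand setting of the counting is not given in the sources used here, so these shared stretches could have moved reads between partners.

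Depth ranged from 4023956 to 11398835 estimated counts among the 100Q libraries and from 7264638 to 8035251 among those of 0Q. In a principal component analysis, 100Q replicate 2 stood alone on the leading axis (30.5% of the variance) and 100Q replicate 1 on the next (22.7%), and the groups did not part on these axes. All 4 genes listed for the HEK293 lineage were tested, and their summed level was 242 to 301 CPM in 100Q and 289 to 322 CPM in 0Q. Most of this sum came from NEFM and NEFL, with means of 177 and 103 CPM over the 6 libraries. PAX2 and LHX1 averaged only 5.93 and 5.05 CPM, below the fibroblast gene COL1A1 at 28.9 CPM. Markers of leukocytes summed to 0 to 3.09 CPM in 100Q and 2.79 to 5.81 CPM in 0Q, with PTPRC, CD3E and LYZ at 0 counts, and the lists for endothelium and hepatocytes stayed under 1.85 CPM in every library. Of the 4 fibroblast genes, COL1A1 and COL3A1 were tested, and the list summed to 32.4 to 37.2 CPM in 100Q and 29.7 to 33.2 CPM in 0Q.

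The first comparison asked whether transcripts of these enzymes differ in abundance once cells receive queuine. The 3 cytosolic genes had slightly higher mean values in 100Q and the 3 mitochondrial genes slightly lower ones, and 0 of the 6 passed the threshold. Over all 14905 genes tested, 2 (0.0134%) were called. Levels are CPM, counts scaled to a common library size with TMM factors, and values per library are listed in the order of replicates 1, 2 and 3. Fold changes are log2 values of 100Q minus 0Q from the quasi-likelihood test of edgeR, with Benjamini-Hochberg adjustment over all genes tested and a threshold of 0.05. Bulk RNA cannot tell a change in a few cells from a smaller change in all of them.

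**Figure D1:**
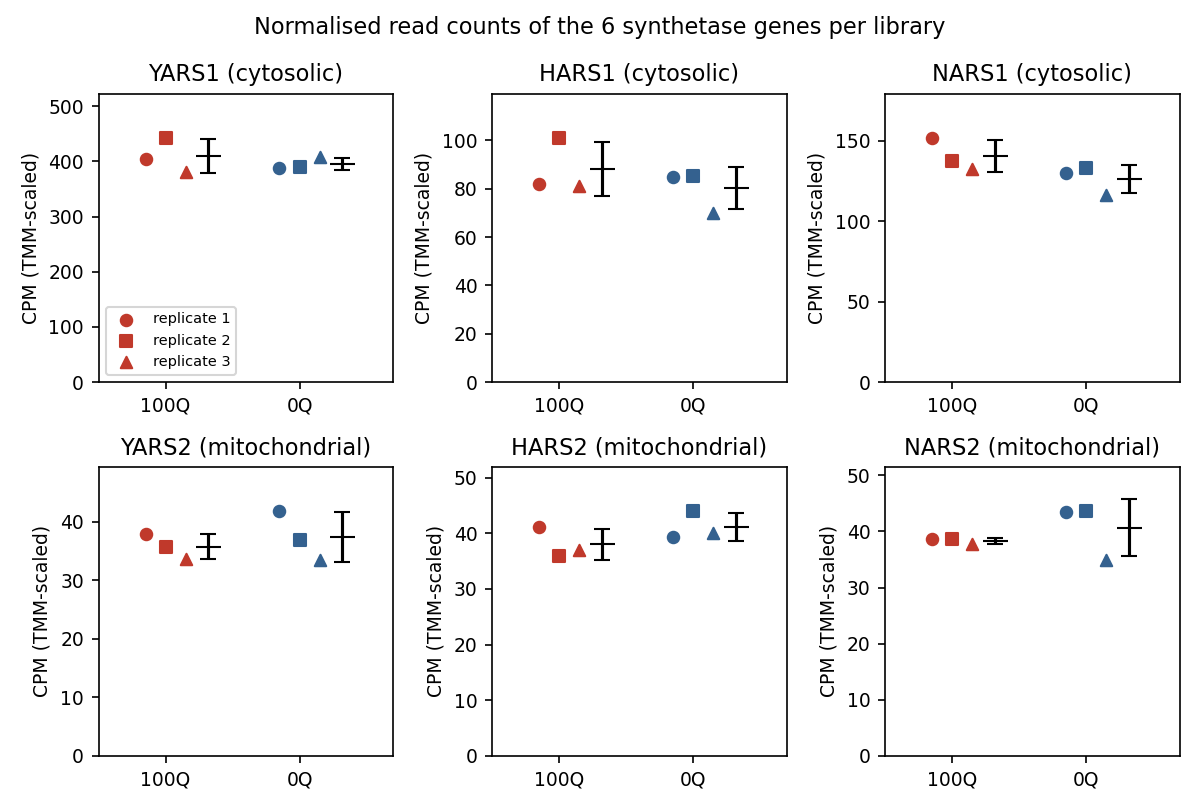
Normalised read count (CPM, from 0) of each gene in 100Q (left, red) and 0Q (right, blue), with 1 marker shape per replicate number and the mean ± SD in black. For each of the 6 genes the 3 libraries of one group overlap those of the other, as with NARS1 at 133 to 152 CPM in 100Q and 116 to 133 CPM in 0Q.

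YARS1, the cytosolic tyrosyl-tRNA synthetase, had 404, 443 and 382 CPM in 100Q, against 388, 390 and 408 CPM in 0Q. The highest and the lowest value were both from 100Q, so the groups overlapped. Its log2 fold change was 0.05 ± 0.08 (SE), with a 95% interval of -0.11 to 0.21, or 0.924-fold to 1.16-fold (edgeR, adjusted p = 0.991). Variants of YARS1 cause a form of Charcot-Marie-Tooth neuropathy.

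HARS1, the cytosolic histidyl-tRNA synthetase and the Jo-1 autoantigen of myositis, had 82.0, 101 and 81.3 CPM in 100Q. In 0Q it had 85.0, 85.3 and 70.1 CPM. Only 100Q replicate 2, the shallowest library, lay above all 3 libraries of 0Q, and 0Q replicate 3 lay below all others. The log2 fold change was 0.13 ± 0.11 (SE; 95% interval -0.11 to 0.37; edgeR, adjusted p = 0.991).

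NARS1, the cytosolic asparaginyl-tRNA synthetase, had the largest point estimate of the 6 genes. It had 152, 137 and 133 CPM in 100Q and 130, 133 and 116 CPM in 0Q. The overlap was narrow: the lowest value of 100Q, 132.66 CPM, lay just under the highest of 0Q, 132.70 CPM. Its log2 fold change was 0.15 ± 0.09 (SE; 95% interval -0.04 to 0.34), with an unadjusted p of 0.110 that did not pass (edgeR, adjusted p = 0.987).

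YARS2, the mitochondrial tyrosyl-tRNA synthetase, whose variants cause a myopathy with lactic acidosis and sideroblastic anaemia, had 37.9, 35.7 and 33.7 CPM in 100Q. The values in 0Q were 41.9, 36.9 and 33.4 CPM. All 3 libraries of 100Q lay within the range of 0Q. The log2 fold change was -0.07 ± 0.13 (SE; 95% interval -0.35 to 0.22; edgeR, adjusted p = 0.991).

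HARS2, the mitochondrial histidyl-tRNA synthetase, a gene of Perrault syndrome, had 41.2, 35.9 and 37.0 CPM in 100Q, against 39.4, 44.02 and 40.2 CPM in 0Q. A pair of 100Q libraries lay below all of 0Q, whereas 100Q replicate 1 lay above 2 of the 3. Its log2 fold change was -0.12 ± 0.12 (SE; 95% interval -0.38 to 0.15; edgeR, adjusted p = 0.991). HARS1 and HARS2 share the region between their start sites shown above. Their point estimates had opposite signs, but both intervals spanned 0, so opposite responses are not shown. Without 100Q replicate 2 the log2 fold change of HARS1 was 0.02.

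NARS2, the mitochondrial asparaginyl-tRNA synthetase, a gene of hereditary deafness and of Leigh syndrome, had 38.7, 38.7 and 37.8 CPM in 100Q. In 0Q it had 43.6, 43.6 and 34.9 CPM. The libraries of 100Q were close to each other (38.4 ± 0.537 CPM, SD, n = 3) and lay within the wider range of 0Q (40.7 ± 5.04 CPM, SD, n = 3). The log2 fold change was -0.09 ± 0.13 (SE; 95% interval -0.36 to 0.19; edgeR, adjusted p = 0.991).

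**Figure D2:**
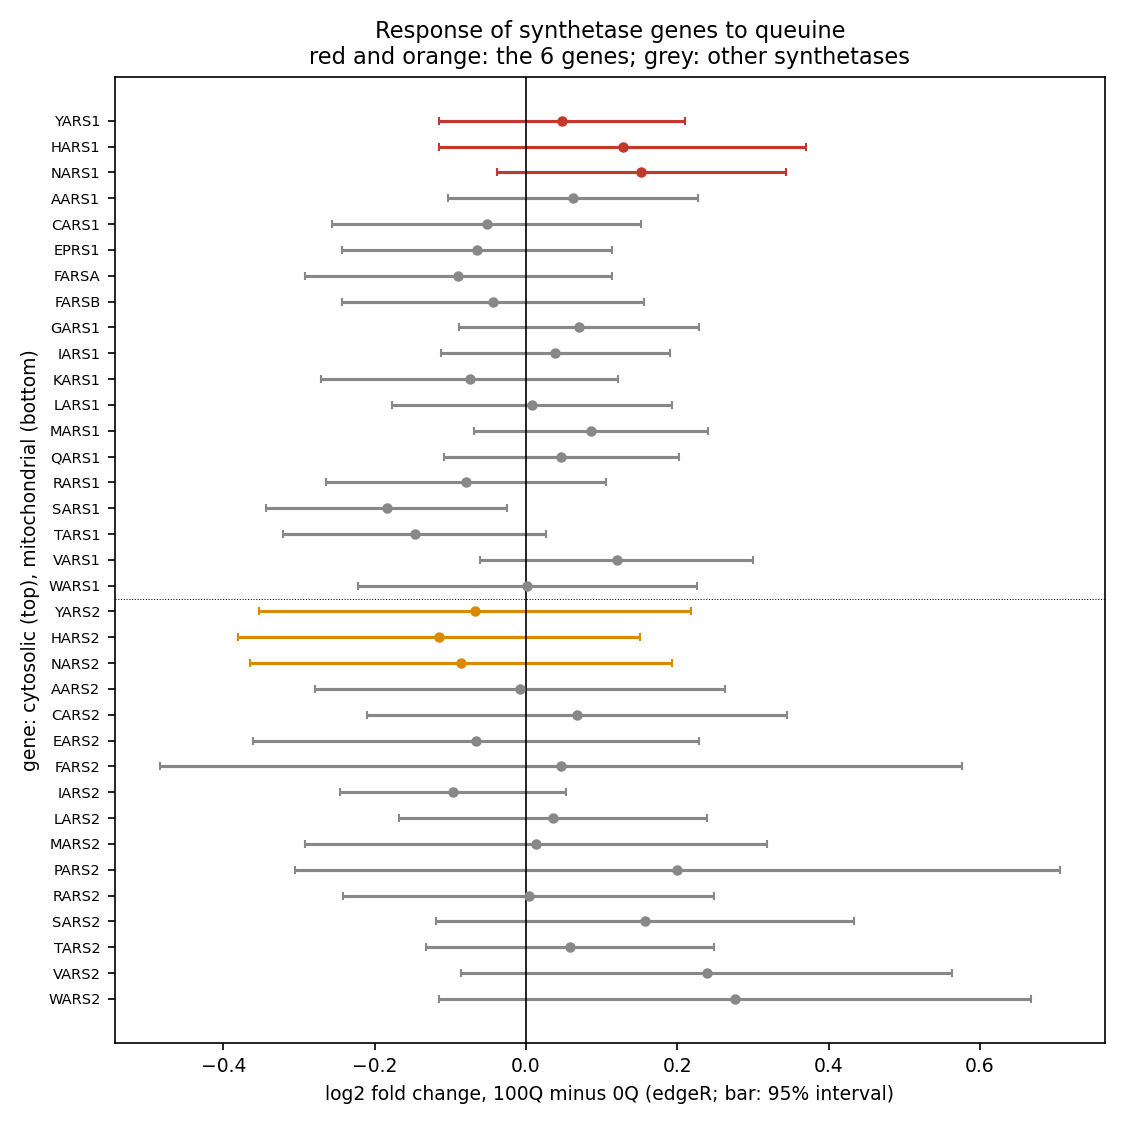
Log2 fold change of 100Q minus 0Q with its 95% interval (x axis) for 19 cytosolic synthetase genes (top) and 16 mitochondrial ones (bottom); the 6 genes of interest are red and orange and the others grey. The intervals of all 6 span 0, from NARS1 at 0.15 to HARS2 at -0.12.

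Of the 6 genes 0 had an unadjusted p under 0.05, against 4.72% of genes tested, and 0 had groups that did not overlap, against 10.6%. The same count of 0 called was found with DESeq2 and limma-voom. The intervals bound the possible change: the widest, that of YARS2, ran from 0.783-fold to 1.16-fold, and that of NARS1 from 0.974-fold to 1.27-fold. A 1.5-fold change in either direction lay outside the interval of every one of the 6 genes. These intervals do not show that levels were equal. The median log2 fold change was 0.13 over the 3 cytosolic genes and -0.09 over the 3 mitochondrial genes, beside -0.0027 over all genes tested. The sign of YARS1 rested on 100Q replicate 2, without which its log2 fold change was -0.013, and that of YARS2 on 0Q replicate 1, without which it was 0.019.

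Levels of different genes were compared per kilobase of canonical transcript. By this length, the cytosolic genes had higher levels than their mitochondrial counterparts in all 6 libraries. With the joined length of all annotated exons, HARS1 instead lay below HARS2. YARS1 stood at 168 ± 12.8 CPM per kilobase in 100Q and 162 ± 4.34 in 0Q (SD, n = 3 each). NARS1 followed at 50.9 ± 3.65 CPM per kilobase in 100Q and 45.7 ± 3.22 in 0Q, and HARS1 at 45.3 ± 5.80 in 100Q and 41.1 ± 4.45 in 0Q. By canonical length, the mitochondrial genes lay close together, with YARS2 at 16.9 ± 0.995 CPM per kilobase in 100Q and 17.7 ± 2.01 in 0Q. HARS2 had 15.4 ± 1.13 CPM per kilobase in 100Q and 16.7 ± 1.01 in 0Q, and NARS2 had 15.3 ± 0.214 in 100Q and 16.2 ± 2.01 in 0Q.

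In this order, YARS1 was above NARS1 and HARS1 above YARS2 in 6 of 6 libraries, with ranges that did not overlap. NARS1 and HARS1 were not separated beyond their spread (NARS1 higher in 5 of 6 libraries, with overlapping ranges). Nor were the mitochondrial genes, of which YARS2 was above HARS2 in 4 libraries and HARS2 above NARS2 in 3. This closeness was not kept per kilobase of all joined exons. The means were then 17.0 for YARS2, 10.6 for HARS2 and 2.41 for NARS2, and HARS1, at 5.94, lay below YARS2. By CPM, YARS2 had the lowest mean of the 6 genes, at 36.6. By this length YARS1 had the highest level of 19 cytosolic synthetase genes in 6 of 6 libraries, whereas NARS1 took place 14 and HARS1 place 16 by their means. The rank of YARS1 was not kept otherwise: it took place 7, with SARS1 first, per kilobase of all joined exons, and place 2, after IARS1, by CPM (alternatives added after the data were seen). YARS2, HARS2 and NARS2 took places 7, 8 and 9 of 16 mitochondrial synthetase genes by canonical length. Their places were 3, 5 and 16 per kilobase of all joined exons, and 10, 7 and 8 by CPM. NARS1 and HARS1 likewise moved, to places 9 and 19 with joined exons and 13 and 18 by CPM.

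**Figure D3:**
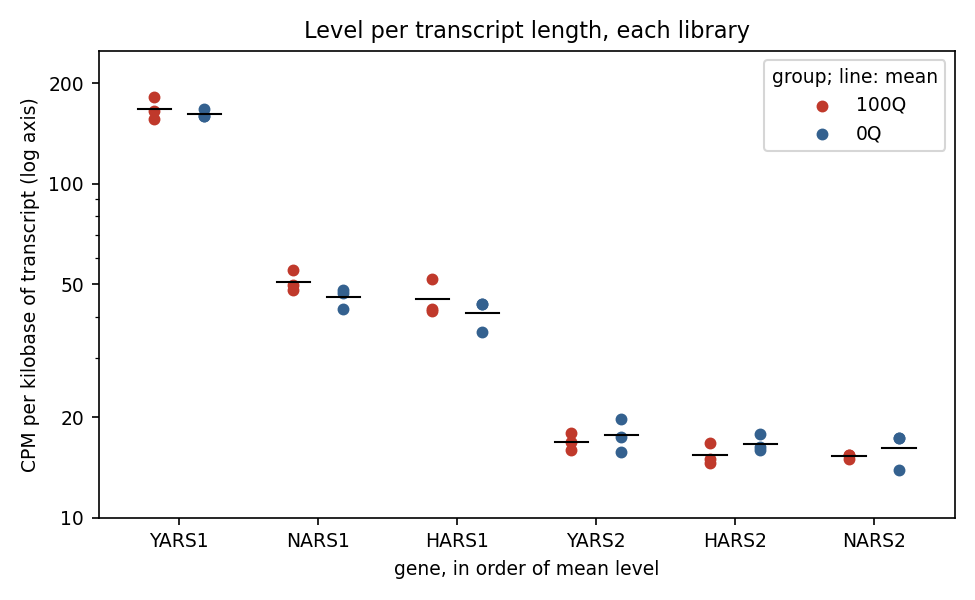
Level per kilobase of canonical transcript (log axis) of each gene in the 3 libraries of 100Q (left, red) and of 0Q (right, blue), with the group mean as a line. YARS1 lies between 156 and 181 CPM per kilobase, NARS1 and HARS1 between 36.0 and 55.0, and the 3 mitochondrial genes between 13.9 and 19.8.

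Per kilobase, YARS1 exceeded YARS2 9.55-fold (8.04 to 10.8 over the 6 libraries), NARS1 exceeded NARS2 3.07-fold (2.71 to 3.57) and HARS1 exceeded HARS2 2.68-fold (2.21 to 3.57). Each pair had the cytosolic gene higher in 6 of 6 libraries. A two-sided exact sign-flip permutation test over libraries gave p = 0.031 for each pair, the smallest possible. Benjamini-Hochberg adjustment over 3 left it unchanged. Any pair with the same gene higher in all 6 libraries gives this value, so it shows only that the direction was steady across libraries. The fold values depend on the length used. With the joined length of all annotated exons, YARS1 stood at 2.42 times the level of YARS2 and NARS1 at 13.5 times that of NARS2. HARS1 then came out lower than HARS2, at 0.556 times its level (two-sided exact sign-flip permutation test over libraries, p = 0.031). For histidine the test thus returned the same value in both directions, and it cannot decide which gene had the higher level. The pair with the largest ratio was thus tyrosine with canonical transcripts and asparagine with joined exons. The joined exons span 14155 bases for HARS1, against 1948 in its canonical transcript, and 16377 bases for NARS2, against 2512. With no length (CPM), the ratios were 11.0 for tyrosine, 2.12 for histidine and 3.37 for asparagine. With canonical transcripts, the cytosolic gene was also higher in every library for 12 of 12 other cytosolic and mitochondrial pairs, by 1.32-fold (CARS1 over CARS2) to 11.9-fold (EPRS1 over EARS2).

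The second comparison asked whether the compartments responded differently to queuine, using the log2 ratio of the cytosolic to the mitochondrial gene within each library, in which the scaling of the library cancels. For asparagine, NARS1 over NARS2 was 1.97, 1.83 and 1.81 in 100Q, against 1.58, 1.604 and 1.74 in 0Q. All 3 libraries of 100Q lay above all 3 of 0Q. The difference was 0.23 ± 0.07 (SE; two-sided exact permutation p = 0.1, the smallest that 3 against 3 libraries allow, and 0.3 after Benjamini-Hochberg adjustment over the 3 pairs).

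For histidine, HARS1 over HARS2 was 0.99, 1.49 and 1.14 in 100Q, and 1.11, 0.95 and 0.80 in 0Q. The groups overlapped, with 100Q replicate 2 highest. The difference was 0.25 ± 0.17 (SE; exact permutation p = 0.2, adjusted 0.3), and it was 0.11 without 100Q replicate 2. For tyrosine, YARS1 over YARS2 was 3.41, 3.64 and 3.50 in 100Q, and 3.21, 3.40 and 3.61 in 0Q. These groups also overlapped, and the difference was 0.11 ± 0.13 (SE; exact permutation p = 0.4, adjusted 0.4), falling to 0.0092 without 0Q replicate 1.

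**Figure D4:**
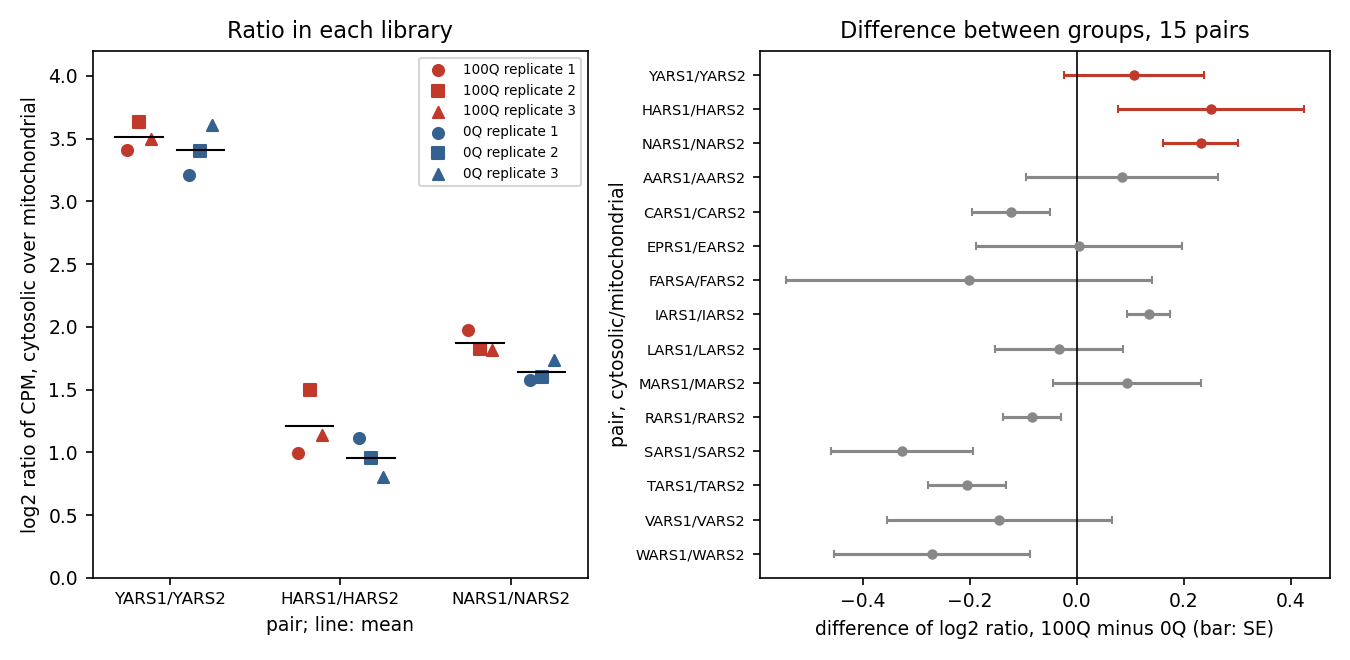
Left, log2 ratio of cytosolic to mitochondrial CPM in each library for the 3 pairs, 100Q (red) left of 0Q (blue), with group means as lines. Right, the difference of that ratio, 100Q minus 0Q, with its SE for 15 pairs; the 3 pairs of interest (red) lie at 0.11 to 0.25 and the other 12 (grey) at -0.33 to 0.13.

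The ratio was thus higher on average in 100Q for 3 of 3 pairs, against 4 of 12 pairs of other synthetases, with a median difference of 0.23 against -0.10. The count of 3 of 3 restates the signs of the single-gene estimates, positive for the cytosolic and negative for the mitochondrial genes. It adds no support to them, and the pairs share the same libraries, so they are not replicates of each other. Among the other 12 pairs, the groups did not overlap for 3. For the CPM of single genes this share was 10.6% of all genes tested, and the share over ratios of gene pairs was not computed. IARS1 over IARS2 was higher in 100Q by 0.13 ± 0.04, whereas SARS1 over SARS2 and TARS1 over TARS2 had differences of -0.33 ± 0.13 and -0.21 ± 0.07 (SE; exact permutation p = 0.1 for each, the smallest possible, and 0.375 after Benjamini-Hochberg adjustment over 15 pairs). Groups without overlap, as for the asparagine pair, thus also occurred among the other pairs, in both directions. No pair could pass a threshold of 0.05, because 3 against 3 libraries allow no exact permutation p below 0.1.

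The coding sequences of the 6 enzymes contain the codons that the queuosine tRNAs read. Codons for tyrosine, histidine, asparagine and aspartate made up 15.7% of NARS1 (86 of 548 codons), 13.3% of YARS1 (70 of 528) and 12.2% of HARS1 (62 of 509). The shares were 13.6% in NARS2 (65 of 477), 13% in YARS2 (62 of 477) and 11.7% in HARS2 (59 of 506), and the median of 19755 human coding sequences was 13.6%. NARS1 stood above 76.3% of coding sequences and HARS2 above 27.3%.

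Among these codons, the share ending in C was higher in the cytosolic than in the mitochondrial member of each pair. It was 54.3% in YARS1 and 46.8% in YARS2, 56.5% in HARS1 and 39.0% in HARS2, and 45.3% in NARS1 and 40.0% in NARS2. All 6 lay below the median of all coding sequences, 57.1%. HARS1, which charges histidine, itself has 3 histidine codons, against 8 in HARS2, and NARS1 has 20 asparagine codons, against 17 in NARS2. To show what these codons look like, the 20-codon stretch richest in them is given for the asparagine pair, with the codons in capitals, T standing for U and codons numbered from the start codon.
NARS1 codons 215 to 234: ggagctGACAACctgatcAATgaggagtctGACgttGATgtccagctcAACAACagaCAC
NARS2 codons 368 to 387: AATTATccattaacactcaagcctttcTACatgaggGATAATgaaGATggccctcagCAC
The NARS1 stretch holds 8 such codons, 6 of them ending in C, and the NARS2 stretch holds 7, of which 2 end in C.

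**Figure D5:**
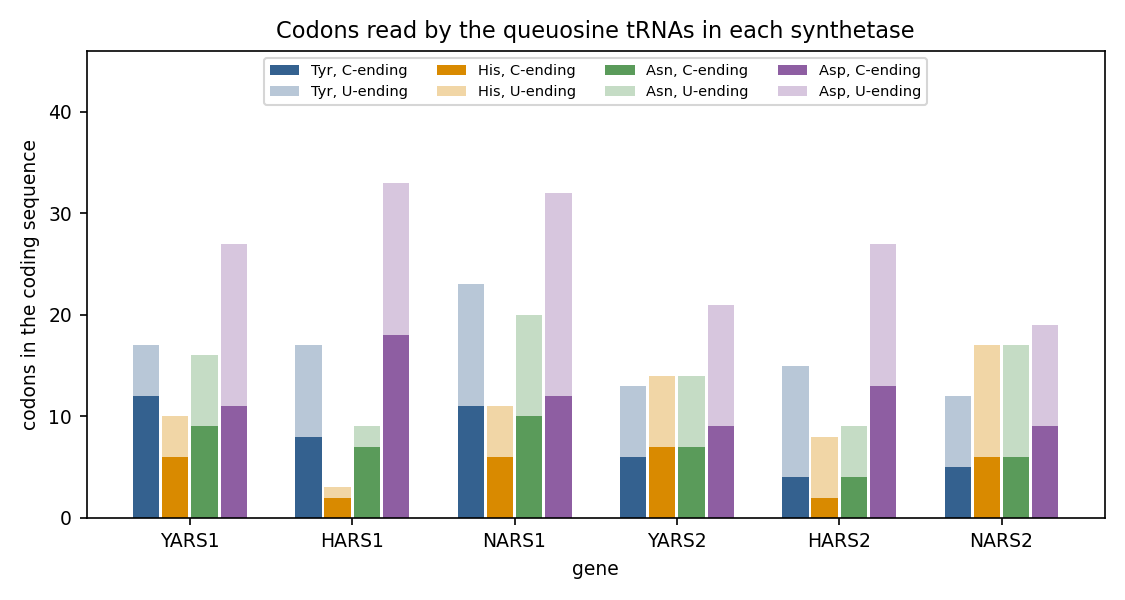
Number of codons (y axis) for tyrosine, histidine, asparagine and aspartate in each coding sequence, with C-ending codons in full colour and U-ending codons pale above them. Aspartate codons are the most frequent of the 4 in each gene, from 19 in NARS2 to 33 in HARS1.

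Genes that act beside these enzymes were examined as lists. Of 16 other cytosolic synthetases 0 were called, with 8 positive and 8 negative log2 fold changes and a median of -0.02. SARS1, the seryl-tRNA synthetase, had the smallest p and the highest level per kilobase of canonical transcript in this list. It averaged 260 CPM in 100Q against 295 CPM in 0Q (log2 fold change -0.18 ± 0.07, SE; edgeR, unadjusted p = 0.026, adjusted p = 0.987). TARS1, the threonyl-tRNA synthetase, had -0.15 ± 0.08. Of 13 other mitochondrial synthetases 0 were called, with 10 positive, 3 negative and a median of 0.05, and the examples with the smallest p were VARS2 at 0.24 ± 0.15 and WARS2 at 0.28 ± 0.18, the enzymes for valine and tryptophan. IARS2, the isoleucyl enzyme, had the highest level per kilobase of these, with a log2 fold change of -0.10 ± 0.07. The 3 scaffold proteins of the multi-synthetase complex, to which none of the 6 enzymes belongs, had negative values and 0 were called, among them EEF1E1 at -0.21 ± 0.10 and AIMP1 at -0.06 ± 0.11. In these lists the groups did not overlap for SARS1, IARS2 and EEF1E1, with 100Q below, and for MARS1 and TARS2, with 100Q above. Among all genes tested, groups did not overlap for 10.6%.

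Of 6 genes for queuine insertion, salvage, transport and sugar addition 0 were called, with 4 positive and 2 negative log2 fold changes and a median of 0.13. QTRT1, the catalytic subunit of the transglycosylase, had 0.36 ± 0.16 on the log2 scale and QNG1, which frees queuine from its nucleotide, 0.26 ± 0.14 (SE). The estimate farthest from 0 was that of QTGAL, the galactosyltransferase of queuosine in tyrosine tRNA, at -0.63 ± 0.38, with overlapping groups. For 2 of the 6, QNG1 and SLC35F2, the groups did not overlap, with 100Q above, against 10.6% of all genes tested. QTRT1, with overlapping groups, was the 1 gene with an unadjusted p under 0.05 (edgeR, unadjusted p = 0.040, adjusted p = 0.987). Of 15 genes of the ATF4 response 0 were called, with 10 positive and 5 negative values and a median of 0.04. CHAC1, which degrades glutathione, had 0.55 ± 0.20 and TRIB3, a pseudokinase that restrains ATF4 signalling, 0.40 ± 0.14, and these had unadjusted p under 0.05 (edgeR, adjusted p = 0.987 for each). DDIT3, which encodes the transcription factor CHOP, had an estimate of similar size in the other direction, -0.53 ± 0.28. The groups did not overlap for 3 of the 15 genes, against 10.6% of all genes tested. These were TRIB3, with 100Q above, and DDIT3 and ASNS, with 100Q below, and the groups overlapped for CHAC1. Of all genes tested, 4.72% had an unadjusted p under 0.05 (edgeR), and the list was not tested as a set. ATF4 itself had 0.01 ± 0.08, and ASNS, the asparagine synthetase, -0.13 ± 0.08. A TGATGNAAN match was found in 3 of the 13 ATF4-response genes with a promoter window, ASNS, SLC3A2 and CHAC1.

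The genes that overlap or adjoin the 6 were followed as well. Around HARS1 and HARS2, WDR55 had a log2 fold change of 0.06 ± 0.16 and ZMAT2 -0.02 ± 0.14 (SE). DND1 was at 0 counts in all 100Q libraries and at 5.97, 4.61 and 0 in those of 0Q. With 10.58 counts in total, DND1 did not pass the filter on low counts and was not tested. S100PBP, which starts 295 bases from YARS1 on the other strand, had 0.10 ± 0.11. Over YARS2, DNM1L, which encodes the mitochondrial fission GTPase, had 0.02 ± 0.09, and ENSG00000286950, which begins 387 bases away on the other strand and shares stretches of YARS2, had -0.87 ± 0.50. In 100Q that noncoding gene held 9.22, 12.3 and 26.7 counts, against 36.6, 39.4 and 20.7 counts in 0Q. YARS2 held 142 to 393 counts in the 100Q libraries and 253 to 300 in those of 0Q. These counts are not scaled for depth, and whether shared reads moved the estimate of YARS2 was not tested. The noncoding genes ENSG00000274105 and ENSG00000275854 lie within YARS2 on its own strand, over 856 and 731 bases. The first held 5, 0 and 7 counts in the 100Q libraries, against 8, 1 and 7 counts in those of 0Q. The second held 3, 2 and 9.77 counts in the 100Q libraries, against 8.36, 4.46 and 3.5 counts in those of 0Q, and neither passed the filter on low counts. None of the neighbours tested passed (edgeR, lowest adjusted p = 0.987).

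Finally, the gene whose CPM followed each of the 6 most closely over the 6 libraries was taken from the 10585 genes that averaged 10 CPM or more. These were CNTROB for YARS1 (Pearson r = 0.984), REEP2 for HARS1 (0.992), RHBDD1 for NARS1 (0.993), UNC119 for YARS2 (0.983), IGDCC4 for HARS2 (0.991) and UQCRC1 for NARS2 (0.987). With 6 libraries such values are common: 58 to 168 genes had r above 0.9 with a given member. No synthetase was among these closest genes, and the points share their libraries and depths.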

How the data were processed

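RNA of 6 HEK293T libraries was sequenced. Selection of polyadenylated RNA, strand, annotation release and molecular identifiers are not given in the labels. The authors deposited estimated counts per Ensembl gene, not normalized, with fractions where reads fit several genes. FastQC, STAR and RSEM were used, per the submitters' processing notes, which list no versions, and the series design names hg38; the labels' protocols name MSR-seq, a multiplexed library method. Of 63086 identifiers, 62541 matched GENCODE release 44 without their version. Counts were rounded and tested with edgeR 4.0.16 in R 4.3.3 (TMM, default expression filter with minimum count 10, quasi-likelihood test, group as the only term), which left 14905 genes; the test was run on simulated data first. DESeq2 1.42.0 and limma-voom (limma 3.58.1) were alternatives. Per-kilobase levels used the length of the Ensembl canonical transcript, not an effective length, so the unstated read positions could shift them. Members and lists were chosen with earlier results of these data known. Named genes were the 6 members; of each list the 2 with the smallest p and the one with the highest level per kilobase; neighbours with at least 10 counts whose annotation overlaps a member or that start within 1 kb; and the closest gene of each member by Pearson r of log2(CPM + 0.5). Other genes named were chosen after their values were seen. Pairs of replicates gave a chi-square of 5.36 to 14.2 per degree of freedom, above sampling noise, so none was taken for a copy. The labels name no batch. The precision of a count is limited by depth, 4023956 to 11398835 counts per library.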

Additional observations from a re-analysis of the deposited data

How the results depend on the processing

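In each of 13 alternatives 0 of the 6 genes were called, with adjusted p of 0.813 or more, and the signs of HARS1 (0.02 to 0.19), NARS1 (0.09 to 0.20), HARS2 (-0.18 to -0.07) and NARS2 (-0.19 to -0.03) were kept. YARS1 (-0.013 to 0.10) turned negative without 100Q replicate 2, at -0.013, and YARS2 (-0.14 to 0.019) turned positive without 0Q replicate 1, at 0.019. Over all genes, 2 were called, against 71 with no filter on low counts, 1 with a mean count of at least 50, 14 with DESeq2, 1 with limma-voom and 0 to 6 with 1 library left out; the cause was not tested. With the replicate number as a block, 3 genes were called; same-numbered libraries had correlated deviations of 3.07e-05, -0.0158 and 0.0879, so the numbers were not taken to pair samples, and the differences of the ratios are the same by construction, at 0.11, 0.25 and 0.23 for tyrosine, histidine and asparagine. With 1 library left out these differences ran from 0.0092 to 0.21, 0.11 to 0.36 and 0.18 to 0.28. The log2 ratio of cytosolic to mitochondrial level per length ran from 3.22 to 3.31 for tyrosine, 1.34 to 1.48 for histidine and 1.57 to 1.65 for asparagine with 1 library left out, where 5 libraries allow no exact p below 0.0625. With the joined length of all exons it was 1.28 for tyrosine, -0.85 for histidine and 3.76 for asparagine, against 3.26, 1.42 and 1.62 with canonical transcripts, and HARS1 took place 5 of the 6 genes.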
